A study of Homo sapiens with 6 samples.

Results

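The 9 transporter genes described here carry drugs and endogenous compounds into the hepatocyte or move organic cations out of it. They are SLCO1B1, SLCO1B3 and SLCO2B1 of the organic anion transporting polypeptide (OATP) family, SLC22A3, SLC22A7, SLC22A9 and SLC22A18 of the SLC22 family, and SLC47A1 and SLC47A2 of the multidrug and toxin extrusion (MATE) family. They were taken by gene symbol, and all 9 were found among the 16659 genes of the deposited table. RNA was sequenced from HepaRG, an established human liver line with features of hepatic progenitor cells, in 3 libraries of cells labelled as a functional knockout of PXR and in 3 libraries of wild-type cells, the control. Neither group had received a drug. The pregnane X receptor (PXR, gene NR1I2) is a nuclear receptor that responds to many drugs. The labels do not say how the receptor was disabled, whether the knockout line is a single clone, or whether the libraries came from separate cultures. P-values below therefore reflect only library-to-library spread, which may be technical.

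Uptake across the sinusoidal membrane is the first step of hepatic drug clearance. OATPs exchange large organic anions such as statins, bilirubin conjugates and bile acids; organic anion and organic cation transporters of the SLC22 family handle smaller charged compounds; and MATE proteins export organic cations in exchange for protons, MATE1 at the bile canaliculus of hepatocytes and MATE2 mainly at the brush border of kidney tubules. In human liver, uptake transporter genes are commonly described as under the control of liver-enriched factors such as HNF4A, while PXR is better known for its effect on P450 and efflux pump genes.

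Levels are given as scaled CPM (read counts relative to sequencing depth), a linear signal whose column sums differ between libraries. Each column moves in hundredths of a step worth 1 read, which gave estimated depths of 28154914 to 33393109 reads in knockout libraries and 11359209 to 20945994 reads in wild-type libraries, so all knockout libraries were deeper. A value of 3 reads, taken as the limit that a count of 0 allows, corresponds to 0.0924 to 0.111 CPM in knockout libraries and 0.135 to 0.247 CPM in wild-type libraries. The targeted gene, NR1I2, was measured at 13.1, 13.4 and 14.3 CPM in knockout libraries, against 8.24, 7.04 and 7.60 CPM in wild-type libraries. A level summed over the whole gene cannot tell whether a working receptor is made and so leaves the label unchecked. CYP3A4 and ABCB1, known PXR targets chosen after their values were seen, were higher in the libraries labelled knockout. No list of PXR targets was examined. CYP3A4, the main drug-metabolizing P450 gene, measured 261, 252 and 258 CPM in knockout libraries, against 13.9, 14.0 and 13.3 CPM in wild-type libraries, a log2 fold change of 4.18. ABCB1, the P-glycoprotein gene, measured 141, 144 and 145 CPM in knockout libraries, against 22.4, 21.4 and 21.0 CPM in wild-type libraries, a log2 fold change of 2.71. PXR is known as an activator of both genes, and the direction of every result below rests on the labels. All 13 hepatocyte markers looked at, CYP3A4 among them, were measured and were called higher in the knockout, as were 40.3% of all tested genes. Their summed level was 48256 to 49456 CPM in knockout libraries and 2413 to 2482 CPM in wild-type libraries. Most of the knockout sum was ALB, with a mean of 32829 CPM in the knockout and 867 CPM in wild type. APOA2 and AHSG passed the filter on low values only through the knockout libraries and so had to differ.

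Among the 9 transporters, 6 rose in the knockout (SLCO1B1, SLCO2B1, SLC22A7, SLC22A9, SLC22A18 and SLC47A1), SLC47A2 fell, and SLCO1B3 and SLC22A3 did not pass the test. The rises and the fall span a wide range: SLC22A7, an organic anion transporter gene that was low in wild-type cells, had a mean of 42.9 CPM in the knockout, while SLC47A2, the transporter with the highest wild-type level per length of the 9, had a mean of 3.07 CPM in the knockout and 109 CPM in wild type. These counts have to be read beside the background, because limma called 79.9% of all 16219 genes tested at an adjusted p threshold of 0.05, 40.3% higher and 39.6% lower in the knockout. Counts of other lists and of neighbours below stand beside the same shares. The groups did not overlap for 7 of the 9 transporters, 6 higher and 1 lower, and for 80.8% of all tested genes (40.8% higher and 40% lower). A change of at least 2-fold past the threshold was seen for 6 of the 9 and for 22.7% of all tested genes. The median log2 fold change (knockout minus wild type) was 1.15 for the 9 and 0.01 for all tested genes. SLCO1B1, SLC22A7 and SLC22A9 passed the filter on low values only through the knockout libraries and so had to differ, and the counts are given only as a description. In RNA from whole cultures, fewer cells that express a gene and less RNA per cell cannot be told apart.

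**Figure D1:**
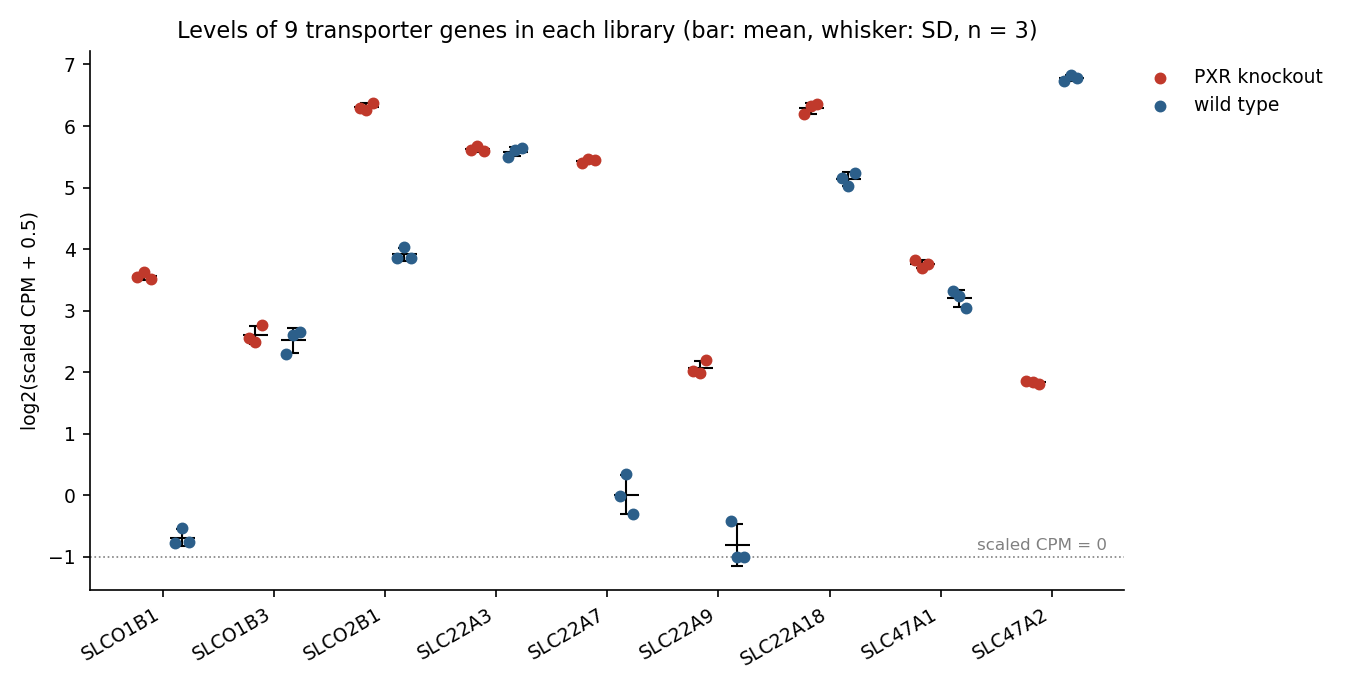
Level of each of the 9 transporters in every library, as log2(scaled CPM + 0.5), with knockout libraries on the left of each pair and wild-type libraries on the right; points are libraries, bars the mean and whiskers the SD of the 3 log2 values. The points of SLCO1B3 and SLC22A3 overlap between the groups, SLC47A2 is the only one of the 9 whose knockout points lie below its wild-type points, and the wild-type points of SLCO1B1, SLC22A7 and SLC22A9 are the lowest in the plot.

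**Figure D2:**
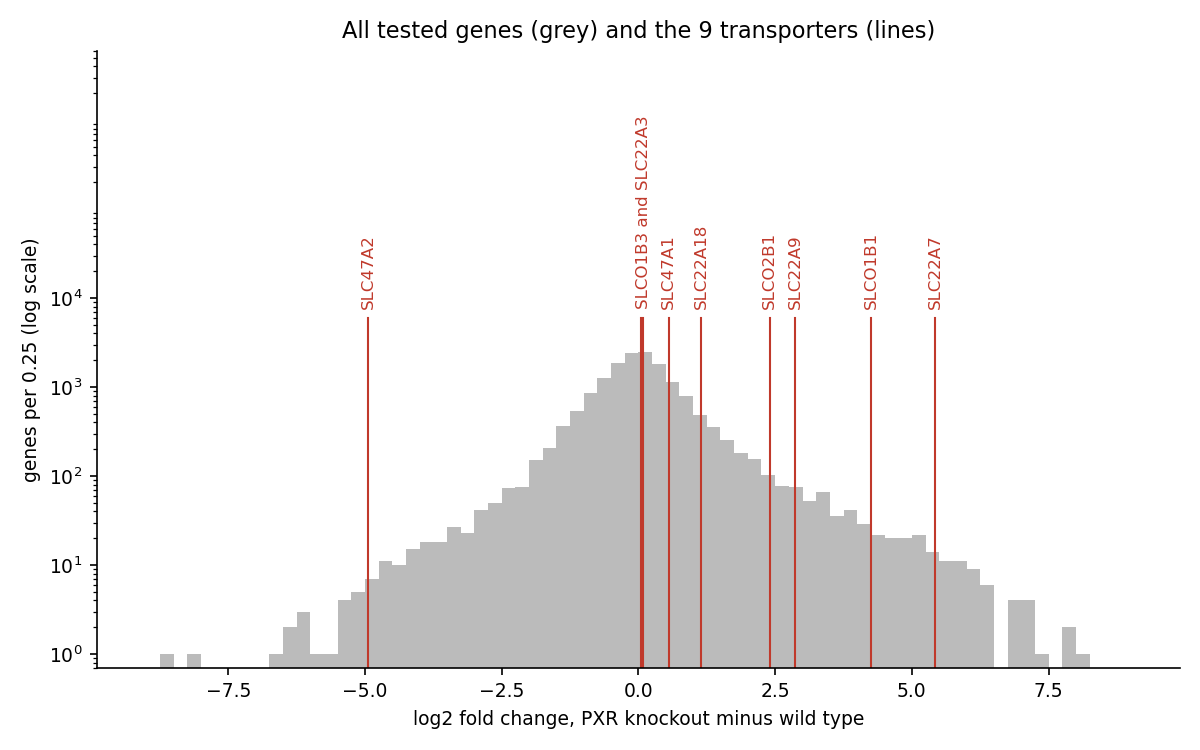
Distribution of the log2 fold change (knockout minus wild type) of all 16219 tested genes in bins of 0.25, with the number of genes on a log axis; red lines mark the 9 transporters. SLCO1B3 and SLC22A3 stand at the centre, SLC22A7 at 5.43 in the right tail and SLC47A2 at -4.94 in the left tail.

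SLCO1B1 encodes OATP1B1, the main hepatic uptake carrier of statins, and lies on chromosome 12 (21131202 to 21239246, plus strand, GRCh38). It measured 11.1, 11.8 and 10.9 CPM in knockout libraries 1 to 3, against 0.0824, 0.191 and 0.0900 CPM in wild-type libraries 1 to 3. The wild-type values rest on 1, 4 and 2 estimated reads, and the groups were far apart. On the log2 scale SLCO1B1 rose by 4.25 ± 0.13 (SE), with a limma adjusted p of 7.1e-13. That scale adds 0.5 CPM to both levels and understates the rise, which was 88.9-fold from the summed reads (exact 95% interval 43.0 to 222, covering counting error only). Of its transcript windows of 100 bases, 4.79% also occur in AC022335.1, an overlapping gene not analysed here.

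SLCO1B3 encodes OATP1B3, the closest paralog of OATP1B1, and starts 320.5 kb upstream of SLCO1B1 on the same strand (20810702 to 20916911). Its levels were 5.40, 5.12 and 6.29 CPM in knockout libraries and 4.38, 5.60 and 5.80 CPM in wild-type libraries, and the groups overlapped. The log2 fold change of 0.087 ± 0.12 (SE; 95% interval -0.18 to 0.35, limma adjusted p = 0.52) did not pass the threshold. It was -0.039 when every library was scaled to the same sum, -0.0033 after quantile normalization and -0.027 without wild-type replicate 1. Within each library, where the scaling cancels, the log2 ratio of SLCO1B1 to SLCO1B3 CPM, with nothing added to either, was 1.04, 1.21 and 0.80 in the knockout and -5.73, -4.87 and -6.01 in wild type, where it rests on the few SLCO1B1 reads. SLCO1B1 was the higher of both in every knockout library, and SLCO1B3 in every wild-type library. The SLCO1B3 level is uncertain, because 52.1% of its transcript windows of 100 bases, the length of a read, also occur in AC011604.2, a read-through gene annotated over its exons. AC011604.2 was estimated at 1.09, 1.10 and 0 CPM in knockout libraries and 0.420, 0.990 and 0.351 CPM in wild-type libraries, and with its reads added to SLCO1B3 the log2 fold change was 0.12 (limma adjusted p = 0.36). None of the SLCO1B1 windows was shared with SLCO1B3.

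The promoters of both OATP1B genes are alike, and they are shown because the paralogs sit in one cluster and differ in their change. The RefSeq windows from 250 bases before to 50 bases after the annotated start (GRCh38.p14, plus strand) were chr12:21130944-21131243 for SLCO1B1 and chr12:20810455-20810754 for SLCO1B3, and 216 of 261 aligned bases (82.8%) were identical. RefSeq windows were found for 5 of the 9 transporters.
SLCO1B1: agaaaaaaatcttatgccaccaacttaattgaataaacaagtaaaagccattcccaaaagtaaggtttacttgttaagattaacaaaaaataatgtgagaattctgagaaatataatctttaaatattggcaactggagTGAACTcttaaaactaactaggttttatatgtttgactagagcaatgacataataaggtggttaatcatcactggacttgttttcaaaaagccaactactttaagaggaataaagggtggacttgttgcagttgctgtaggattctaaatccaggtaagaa
SLCO1B3: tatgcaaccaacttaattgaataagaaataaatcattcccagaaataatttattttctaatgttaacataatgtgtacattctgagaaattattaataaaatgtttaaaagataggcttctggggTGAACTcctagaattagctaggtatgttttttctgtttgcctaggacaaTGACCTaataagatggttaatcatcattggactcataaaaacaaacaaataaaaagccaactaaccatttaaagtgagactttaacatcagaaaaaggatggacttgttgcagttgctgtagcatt
Capitals mark matches on either strand to AGGTCA or AGTTCA, half-sites of nuclear receptors such as PXR; the HNF4A site CAAAGTCCA was also searched and had no match in either window. AGTTCA was matched 111 bases before the SLCO1B1 start and 125 bases before that of SLCO1B3, which also holds AGGTCA at 76 bases. Of 35116 windows of this length, 10.4% hold AGTTCA, 13.8% AGGTCA and 0.384% CAAAGTCCA. A match of letters does not show that a factor binds there.

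SLCO2B1 encodes OATP2B1, a carrier of sulfated steroids and statins found in liver and intestine (chromosome 11, 75100563 to 75206549, plus strand). It measured 78.0, 76.4 and 82.9 CPM in knockout libraries, against 13.9, 15.8 and 14.0 CPM in wild-type libraries. All knockout libraries were above all wild-type libraries, by a margin many times the spread within either group. SLCO2B1 rose by 2.40 ± 0.056 (SE) on the log2 scale, with a limma adjusted p of 4.7e-14. Per kb of exon it was the most abundant of the 3 OATP genes in the knockout, at 7.64 ± 0.33 CPM per kb (SD, n = 3), against 1.41 ± 0.10 CPM per kb in wild type. Of its nearest tested neighbours, NEU3 had a log2 fold change of -0.45 and ARRB1 one of 0.20, and within 500 kb 3 of 11 tested genes rose and 5 fell.

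SLC22A7 encodes OAT2, an uptake carrier of organic anions and nucleotides in the hepatocyte (chromosome 6, 43295694 to 43305538, plus strand). Its levels were 41.9, 43.7 and 43.0 CPM in knockout libraries, against 0.495, 0.766 and 0.315 CPM in wild-type libraries, where it rested on 6, 16 and 7 estimated reads. Knockout libraries differed from each other by a few percent while the groups were far apart. The log2 fold change of 5.43 ± 0.14 (SE, limma adjusted p = 9.9e-14) was the rise with rank 53 among the 16219 tested genes, and from the summed reads the rise was 81.6-fold (exact 95% interval 56.7 to 122, counting error only). The gene on its opposite strand, CRIP3, shares 148 exon bases with SLC22A7, which is 4.2% of its exon length. CRIP3 fell, to 2.13 ± 0.26 CPM in the knockout, against 16.6 ± 0.64 CPM in wild type (SD, n = 3 each), with a log2 fold change of -2.71. The library kit keeps strand, but no source used here says whether counting used it.

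SLC22A9 encodes OAT7, a liver carrier of sulfate conjugates (chromosome 11, 63369789 to 63410294, plus strand). It measured 3.54, 3.44 and 4.08 CPM in knockout libraries, against 0.247 CPM in wild-type library 1, and was listed at 0 in wild-type libraries 2 and 3. Only 3 estimated reads stood behind the wild-type level, against 115, 93 and 131 reads in the knockout libraries. On the log2 scale the rise was 2.87 ± 0.18 (SE), with a limma adjusted p of 1.8e-09, and the ratio of summed reads was 68.2 with an exact 95% interval of 23.1 to 332 for counting error. Both tested SLC22 genes next to it were also higher in the knockout. SLC22A9 and both of these neighbours passed the filter on low values only through the knockout libraries and so had to differ. SLC22A25, 140.1 kb upstream, measured 3.94 ± 0.33 CPM in the knockout and 0.0894 ± 0.0067 CPM in wild type (SD, n = 3 each; log2 fold change 2.91 ± 0.14, SE). SLC22A10, 231.9 kb upstream, measured 1.54, 1.48 and 1.24 CPM in the knockout and was listed at 0 in all 3 wild-type libraries. It was at least 26.1-fold higher when set against 3 reads over the wild-type group. The exact 95% interval for counting error, as used for the other ratios, has a lower limit of 21.0-fold. None of the transcript windows of SLC22A9 was shared with another gene. Of the 9 tested genes within 500 kb, 5 rose, SLC22A25 and SLC22A10 among them, and 1 fell. The next one downstream, RARRES3, had a log2 fold change of 0.99.

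SLC22A3 encodes OCT3, a carrier of monoamines and other organic cations with a wide tissue distribution (chromosome 6, 160348268 to 160452581, plus strand). Its levels of 48.5, 50.8 and 47.6 CPM in knockout libraries and 44.8, 48.4 and 49.3 CPM in wild-type libraries overlapped. The log2 fold change was 0.044 ± 0.045 (SE; 95% interval -0.053 to 0.14, limma adjusted p = 0.38), and it was -0.093 (adjusted p = 0.065) when every library was scaled to the same sum. SLC22A7 lies on the same chromosome, and a plain ratio of CPM within a library does not depend on its scaling. The log2 ratio of SLC22A7 to SLC22A3 was -0.21, -0.22 and -0.15 in knockout libraries 1 to 3, against -6.50, -5.98 and -7.29 in wild-type libraries 1 to 3. SLC22A7 was close below SLC22A3 by CPM in every knockout library and far below it in every wild-type library. Downstream of SLC22A3, LPAL2 had 1.38 ± 0.10 CPM in the knockout and 2.26 ± 0.26 CPM in wild type (SD, n = 3 each).

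SLC22A18 encodes an organic cation transporter-like protein and lies in the imprinted region of chromosome 11 (2899721 to 2925246, plus strand). It measured 72.5, 79.8 and 81.3 CPM in knockout libraries, against 35.0, 32.1 and 37.4 CPM in wild-type libraries. The groups did not overlap, and the rise on the log2 scale was 1.15 ± 0.056 (SE, limma adjusted p = 1.4e-10). Its antisense partner SLC22A18AS, with 227 exon bases in common, had 2.52 ± 0.15 CPM in the knockout and 0.992 ± 0.087 CPM in wild type (SD, n = 3 each), and rose by 1.02 ± 0.13 (SE) on the log2 scale. Reads of the pair cannot be told apart without strand, but the partner held a small part of the level of SLC22A18 in every library. Other imprinted genes nearby had other values: PHLDA2, which starts 29.7 kb downstream, had 9.32 ± 0.40 CPM in the knockout and 9.21 ± 1.35 CPM in wild type, and the non-coding RNA KCNQ1OT1 had a log2 fold change of 0.36 ± 0.029 (SE).

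SLC47A1 encodes MATE1, the canalicular exporter of organic cations such as metformin (chromosome 17, 19495385 to 19579034, plus strand). Its levels were 13.6, 12.5 and 13.0 CPM in knockout libraries, against 9.48, 8.95 and 7.75 CPM in wild-type libraries. Every knockout library was above every wild-type library, and the log2 fold change of 0.56 ± 0.087 (SE) had a limma adjusted p of 4.2e-05. Scaling every library to the same sum moves the median log2 fold change of all tested genes to -0.12, and SLC47A1 was then at 0.42 and still passed. An antisense gene, AC025627.1, shares 203 of its exon bases and was not analysed here.

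SLC47A2 encodes MATE2, the kidney exporter, and lies on the same chromosome with its start 223.6 kb from that of SLC47A1, on the opposite strand (19678288 to 19718979). It measured 3.14, 3.07 and 2.99 CPM in knockout libraries, against 106.1, 112.9 and 109.03 CPM in wild-type libraries. The wild-type level rested on 1287, 2358 and 2424 estimated reads, so it was well measured in all 3 libraries. SLC47A2 had a log2 fold change of -4.94 ± 0.057 (SE; limma adjusted p = 3.5e-17), the fall with rank 21 among the tested genes, and the wild-type mean was 35.6 times the knockout mean. The log2 ratio of SLC47A2 to SLC47A1 CPM was -2.11, -2.02 and -2.13 in knockout libraries 1 to 3, against 3.48, 3.66 and 3.81 in wild-type libraries 1 to 3. The order of the MATE genes was the reverse in the knockout, in every library. None of the transcript windows of either MATE gene was shared with the other.

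The start of SLC47A2 faces that of a long non-coding RNA gene, AC005722.2 (19719059 to 19722428, plus strand), which begins 80 bases upstream and runs in the opposite direction. AC005722.2 fell too, with 0.0308, 0.222 and 0.0622 CPM in knockout libraries, against 1.98, 1.53 and 1.98 CPM in wild-type libraries, or 1, 6 and 2 estimated reads in the knockout, against 24, 32 and 44 in wild type. Its log2 fold change was -1.95 ± 0.17 (SE; limma adjusted p = 9.0e-08), but it passed the filter only through the wild-type libraries and so had to differ. The window around the SLC47A2 start (RefSeq, GRCh38.p14, chr17:19718930-19719229, minus strand) holds the starts of both genes, and capitals mark the stretch from the first base of AC005722.2 to the first base of SLC47A2.
SLC47A2: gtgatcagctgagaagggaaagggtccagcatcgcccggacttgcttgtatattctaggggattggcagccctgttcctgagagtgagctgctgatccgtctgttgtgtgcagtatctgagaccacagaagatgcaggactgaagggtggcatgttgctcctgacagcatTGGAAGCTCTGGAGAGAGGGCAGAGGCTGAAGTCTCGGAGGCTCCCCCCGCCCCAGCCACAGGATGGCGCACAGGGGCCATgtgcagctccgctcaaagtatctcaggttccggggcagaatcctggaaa
This window has a GC content of 57.7%, against 31.3% in that of SLCO1B1, 57.3% in that of SLCO2B1 and 61.3% in that of SLC22A7. It held no match to any of the motifs searched, on either strand. The window of SLCO2B1, a gene that rose, held none either, and that of SLC22A7 held AGGTCA 144 bases before its RefSeq start. The RefSeq start lies 50544 bases from the gene start given above for SLCO2B1 and 2566 bases from that for SLC22A7. Their windows therefore do not describe the sequence at those gene starts. Other genes within 500 kb went in both directions. ALDH3A1, an aldehyde dehydrogenase gene 29.96 kb upstream, fell to 33.9 ± 1.28 CPM in the knockout, against 179 ± 4.52 CPM in wild type (log2 fold change -2.39 ± 0.036, SE), and MFAP4, a matrix protein gene, fell to 0.0518 ± 0.065 CPM in the knockout, against 3.998 ± 0.12 CPM in wild type, and likewise passed only through wild type. ALDH3A2, which lies between both MATE genes, rose to 420 ± 5.37 CPM in the knockout, against 239 ± 3.50 CPM in wild type (SD, n = 3 each). Of the 10 tested genes in this window, SLC47A2 left out, 3 rose and 5 fell, with a median log2 fold change of -0.22.

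**Figure D3:**
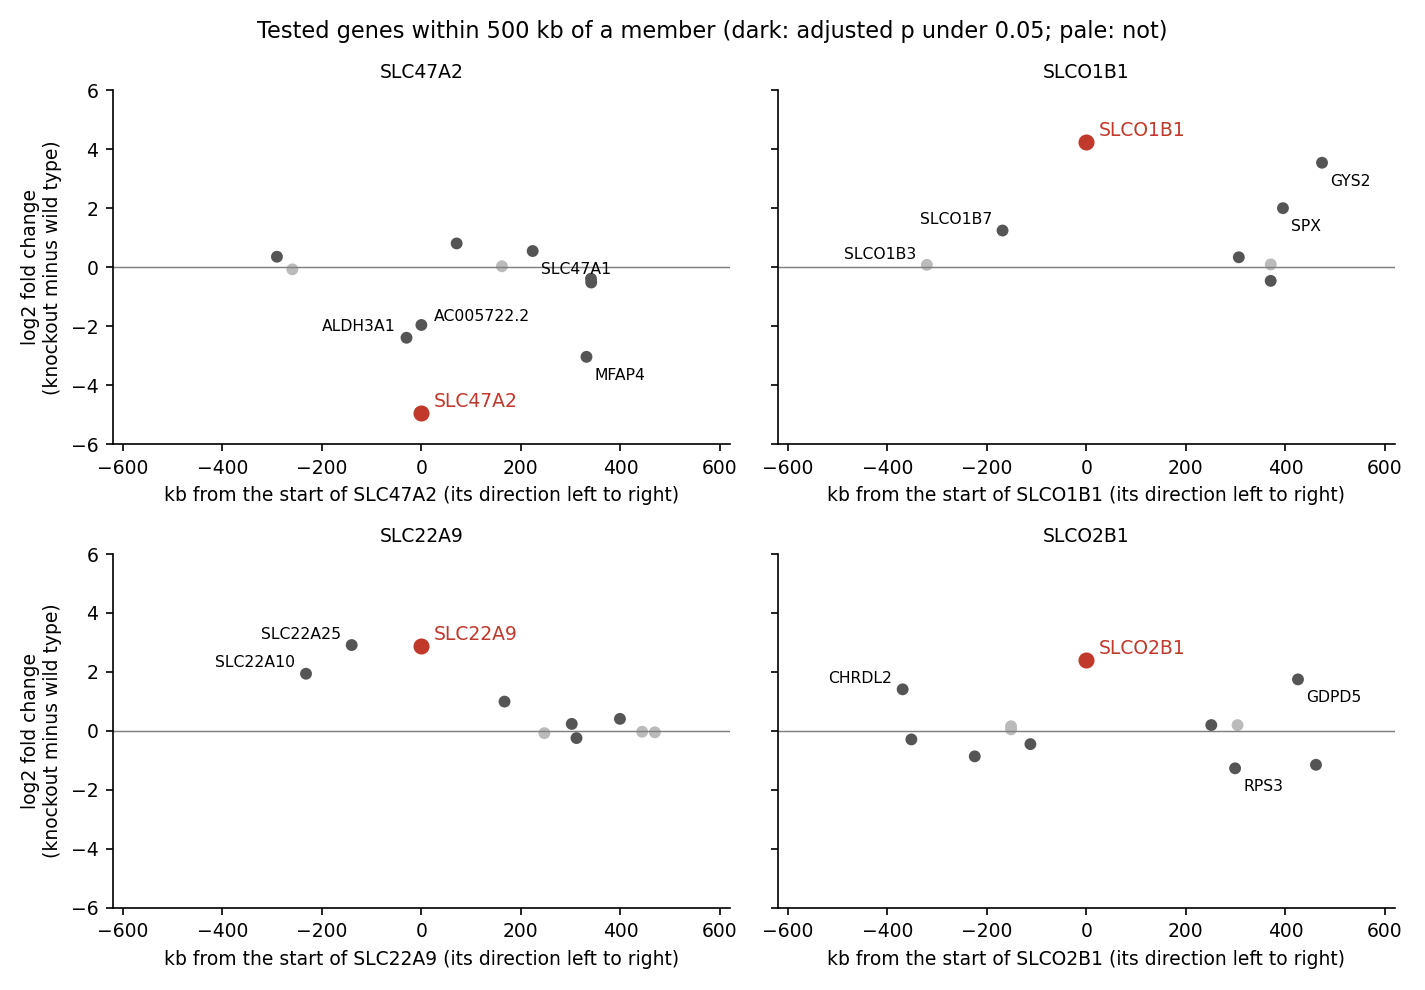
Log2 fold change (knockout minus wild type) of tested genes within 500 kb of SLC47A2, SLCO1B1, SLC22A9 and SLCO2B1, by distance in kb from the start of the named gene (red), with its direction of transcription from left to right. SLC47A2 lies among genes that fell and genes that rose; SLCO1B3 lies near 0 beside SLCO1B1 at 4.25, SLC22A25 and SLC22A10 stand with SLC22A9 at 2.87, and SLCO2B1 at 2.40 is the highest point of its panel.

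Levels of different genes can be compared only per length, here as CPM per kb of annotated exon. Exons of all annotated transcripts of a gene were merged, so this length can exceed that of a single transcript. The order, sums and shares below depend on that annotation. In the knockout, SLC22A18 (14.6 ± 0.89) and SLC22A3 (14.6 ± 0.49 CPM per kb; SD, n = 3 each) stood highest and overlapped. SLC22A7 (12.2 ± 0.25), SLCO2B1 (7.64 ± 0.33), SLCO1B1 (5.07 ± 0.20) and SLC47A1 (2.28 ± 0.10 CPM per kb) followed without overlap. SLCO1B3 and SLC22A9, at 1.58 ± 0.17 and 1.56 ± 0.14 CPM per kb, could not be ordered, and SLC47A2 was lowest at 0.459 ± 0.012 CPM per kb. In wild type, SLC47A2 stood highest at 16.3 ± 0.51 CPM per kb, ahead of SLC22A3 at 14.2 ± 0.71 and SLC22A18 at 6.55 ± 0.50. SLC47A1, SLCO1B3 and SLCO2B1 overlapped between 1.24 and 1.66 CPM per kb in wild type, and SLC22A7, SLCO1B1 and SLC22A9 lay at or below 0.217 CPM per kb in every wild-type library.

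Summed over the 9 transporters, the level was 60.0 ± 1.41 CPM per kb in the knockout and 41.7 ± 1.23 CPM per kb in wild type (SD, n = 3 each). The 3 OATP genes summed to 14.3 ± 0.35 CPM per kb in the knockout, against 2.95 ± 0.30 in wild type, and the 4 SLC22 genes to 43.0 ± 1.33 in the knockout, against 20.9 ± 0.84 in wild type. The sum of the MATE genes went the other way, with 2.74 ± 0.11 CPM per kb in the knockout and 17.9 ± 0.50 in wild type. Only SLC47A2 fell, while SLC47A1 was at 2.28 CPM per kb in the knockout and 1.53 in wild type. SLC47A2 alone held 0.734% to 0.804% of the sum in knockout libraries and 38.3% to 39.8% in wild-type libraries, and SLC22A7 held 20.04% to 20.4% in knockout libraries and 0.210% to 0.513% in wild-type libraries.

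**Figure D4:**
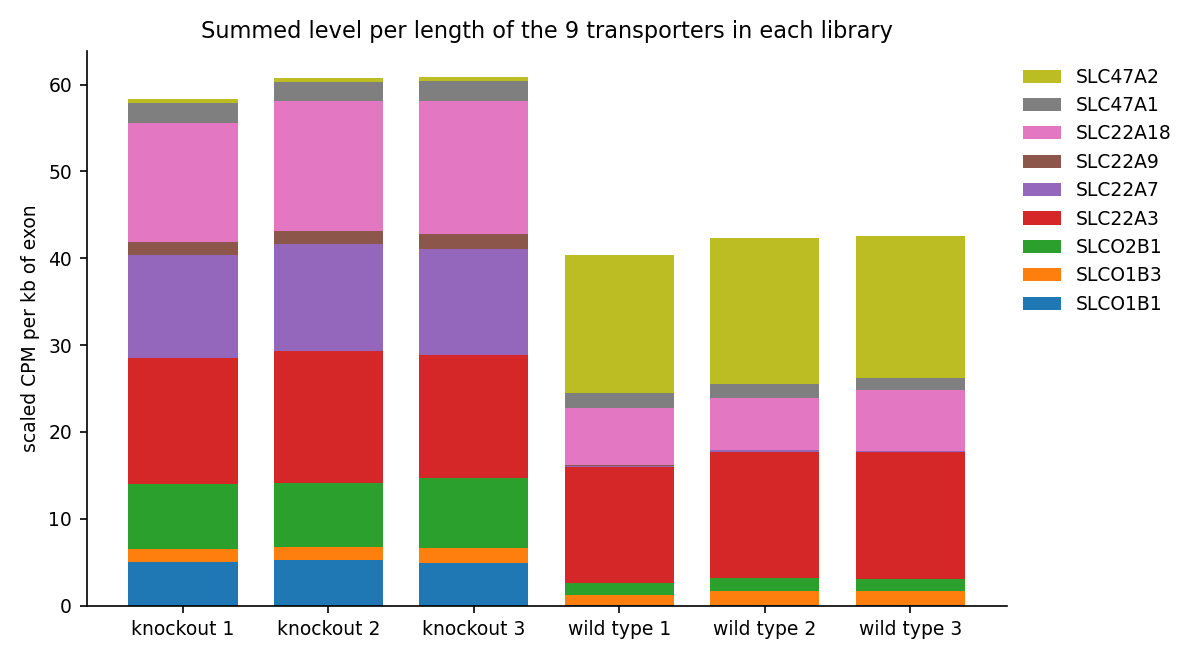
Summed level per length of the 9 transporters in each library, in scaled CPM per kb of annotated exon, stacked by gene, with the 3 knockout libraries on the left. The stacks reach 58.4 to 60.9 in the knockout and 40.3 to 42.5 in wild type; the SLC47A2 segment is wide in wild type and thin in the knockout, and the SLC22A7 segment is the reverse.

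Of 5 other SLCO genes measured, 2 rose and 2 fell, with a median log2 fold change of -0.021. SLCO1B7 passed the filter only through the knockout libraries and SLCO4C1 only through the wild-type libraries, so both had to differ. SLCO1B7, which lies between SLCO1B3 and SLCO1B1, had 2.19 ± 0.23 CPM in the knockout and 0.633 ± 0.14 CPM in wild type, while SLCO4C1, a carrier best known from the kidney, fell to 0.367 ± 0.061 CPM in the knockout, against 3.93 ± 0.62 CPM in wild type (SD, n = 3 each). The SLCO1B7 values rest on 76.59, 52 and 73.48 estimated reads in knockout libraries and 9.71, 11.42 and 12.28 in wild-type libraries. Most of these are not whole, and sequence shared with other genes was not examined for SLCO1B7. SLCO2A1, the prostaglandin transporter gene, fell by 0.96 on the log2 scale, and SLCO3A1 rose by 0.25, a call lost with equal library sums (0.12, limma adjusted p = 0.22) and with quantile normalization (0.19, adjusted p = 0.052). Of 7 other SLC22 genes described, 4 rose and 3 fell, with a median of 0.60. SLC22A25 and SLC22A10 were among the rises and also passed the filter only through the knockout libraries. SLC22A23 and SLC22A4, the ergothioneine transporter gene, fell by 0.78 and 0.49, and SLC22A5, the carnitine transporter gene, had 46.1 ± 1.27 CPM in the knockout and 52.1 ± 0.13 CPM in wild type, a fall of 0.17 on the log2 scale. All of these medians stand beside 0.01 for all tested genes, and the counts beside 40.3% higher and 39.6% lower.

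**Figure D5:**
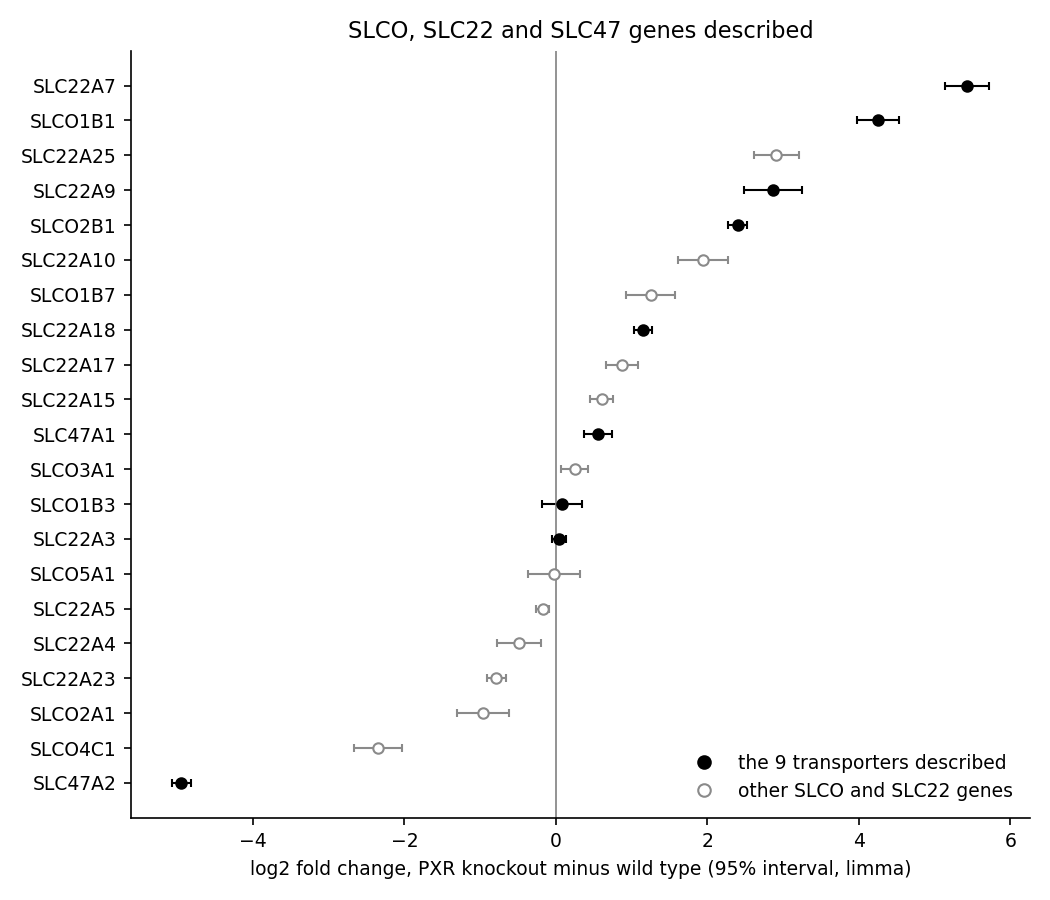
Log2 fold change (knockout minus wild type) with its 95% interval from limma for the SLCO, SLC22 and SLC47 genes described, the 9 transporters in black and other family members as open circles. SLC22A7 stands at the top with 5.43 and SLC47A2 at the bottom with -4.94, and the intervals of SLCO1B3, SLC22A3 and SLCO5A1 include 0.

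Transporters that work beside these 9 were looked at by list. Their counts stand beside 40.3% higher and 39.6% lower among all 16219 tested genes, or 5358 and 7681 genes with equal library sums. Among 17 other uptake carriers tested, 9 rose and 6 fell (median log2 fold change 0.30), or 7 and 6 with equal library sums. SLC10A1, which encodes NTCP, the sodium-dependent bile acid uptake carrier, measured 9.11 ± 0.91 CPM in the knockout and 0.316 ± 0.10 CPM in wild type (SD, n = 3 each; log2 fold change 3.56 ± 0.14, SE), and SLC28A1, a concentrative nucleoside transporter gene, had a log2 fold change of 2.79. Both passed the filter only through the knockout libraries and so had to differ. SLC19A1, the reduced folate carrier gene, and SLC29A1, an equilibrative nucleoside transporter gene, fell by 1.29 and 0.74. Of 10 efflux pump genes, 6 rose and 3 fell (median 1.05), or 6 and 4 with equal library sums. ABCC6 and ABCB4, the phospholipid floppase gene of the canaliculus, had log2 fold changes of 3.79 and 2.93, while ABCC4 and ABCC1 fell by 0.78 and 0.56.

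Of 17 measured genes for transcription factors linked to transporter genes, 13 rose and 1 fell, or 11 and 3 with equal library sums, and the median log2 fold change was 0.80. Among all 16219 tested genes, 40.3% rose and 39.6% fell, and with equal library sums 5358 genes rose and 7681 fell. NR1H4, the bile acid receptor FXR, had 68.7 ± 2.63 CPM in the knockout and 2.17 ± 0.39 CPM in wild type (SD, n = 3 each). ONECUT1, at 4.09, and NR1I3, at 1.44, passed the filter only through the knockout libraries and so had to differ. PROX1 and VDR had log2 fold changes of 3.10 and 2.09, and FOXA2, FOXA1 and CEBPA of 1.09, 1.03 and 1.01. NFE2L2, the NRF2 gene, fell by 0.15, and FOXA3, PPARA and TFAP2A did not pass the test. FOXA3 and PPARA had log2 fold changes of -0.34 and -0.13 that passed with equal library sums. With quantile normalization FOXA3 passed as well (-0.325, limma adjusted p = 0.011) and PPARA did not (-0.050, limma adjusted p = 0.13). HNF4A was not analysed here. Whether any of these factors acts on the transporters was not tested.

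Markers of other cell types also moved between the groups, and their part in the transporter values was not tested. Their counts stand beside 40.3% higher and 39.6% lower among all tested genes. Of 9 bile duct markers, 5 were measured, of which 3 rose and 2 fell, and their sum was 375 to 401 CPM in knockout libraries and 490 to 516 CPM in wild-type libraries. KRT19 was at 334 CPM in the knockout and 111 CPM in wild type, and SPP1 at 43.6 CPM in the knockout and 382 CPM in wild type. Of 9 kidney tubule markers, looked at because MATE2 is a kidney protein, 5 were measured and 4 tested, of which 2 rose and 2 fell, with sums of 36.5 to 40.9 CPM in the knockout and 8.37 to 9.86 CPM in wild type, most of it CDH16 (30.6 CPM in the knockout and 5.12 CPM in wild type). Of 9 stellate and mesenchymal markers, 8 were measured, 5 rose and 3 fell, with sums of 489 to 512 CPM in the knockout and 119 to 126 CPM in wild type. The largest part was DCN (334 CPM in the knockout and 63.1 CPM in wild type). Those that fell were DES (1.18 CPM in the knockout and 18.5 CPM in wild type), PDGFRB and RGS5, with log2 fold changes of -3.50, -1.45 and -0.69. Of 10 endothelial and leukocyte markers, 4 were measured, 3 rose (2 with either other scaling) and 1 fell, with sums of 236 to 244 CPM in the knockout and 66.5 to 69.9 CPM in wild type, most of it KDR (218 CPM in the knockout and 53.3 CPM in wild type). KRT7, PDGFRB and PECAM1 passed the filter only through wild type, and SLC5A2, APOA2 and AHSG only through the knockout, so these had to differ. None of the measured markers was at 0 in all 6 libraries.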

How the data were processed

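RNA-seq of 6 HepaRG libraries was used. Per the labels, a stranded mRNA kit was used and ends were read in pairs of 100 bases; hg38, limma, edgeR, Bowtie2, Trim Galore and FastQC are named in the submitters' processing notes, with no version. The sample titles begin with RSEM, which is not in that list. No source used here gives the roles of these tools, the annotation or a gene filter. The deposited table is named for log2 values but holds a linear signal, here called scaled CPM, with column sums that differ between libraries.

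Of 16673 rows, 14 duplicate pseudoautosomal rows were dropped, and 21 gene symbols that had become dates were restored. Coordinates and exon lengths came from GENCODE 29 (GRCh38), where 16608 of the 16659 remaining IDs were found. Of the values under 20 reads, 67.9% to 76.6% came out whole (tolerance 0.006 of a read), and a count test was therefore not run. Genes above 1 scaled CPM in at least 3 of 6 libraries were tested as log2(scaled CPM + 0.5) with limma 3.58.1 in R 4.3.3 (group as the sole term, trended empirical Bayes variances, two-sided p, Benjamini-Hochberg over all genes tested, threshold 0.05); the fit was tested on simulated data. The scale understates changes of low genes. Exact 95% intervals for ratios of summed reads, conditional on their total, cover counting error only. Sequence windows of 100 bases were matched to GENCODE transcripts, and promoters to RefSeq windows on GRCh38.p14 (aligned with Biopython 1.88). Other steps used scipy 1.17.1, numpy 2.4.6, matplotlib 3.10.9 and pandas 2.3.3 under Python 3.11.15.

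The members and lists were chosen with earlier results of these data known. Named genes are the 9 transporters, up to 4 called genes of each list (the top 2 in each direction), the listed transcription factors, the nearest neighbours, and 3 genes of like pattern for the largest rise and fall; further genes within 500 kb, CYP3A4, ABCB1 and the motifs searched were chosen after their values were seen. Some genes that this rule names are not reported here. Alternatives were another pseudocount, no filter, equal library sums, quantile normalization, no trend, a replicate block and leaving out each library.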

Additional observations from a re-analysis of the deposited data

How the results depend on the processing

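The 6 rises and the fall of SLC47A2 kept their direction and their side of the threshold under all 13 alternatives. For SLCO1B1, SLC22A7 and SLC22A9, which passed the filter on low values only through the knockout libraries, this was largely fixed in advance. Leaving out each library gave 12444 to 12887 genes past the threshold in place of 12960. SLCO1B3 (log2 fold change 0.087) and SLC22A3 (0.044), neither of which passed, changed sign with equal library sums, to -0.039 and -0.093; SLCO1B3 also did so with quantile normalization (-0.0033) and without wild-type replicate 1 (-0.027), the shallowest library. Leaving out each library put SLCO1B3 between -0.027 and 0.16. Neither passed under any alternative, and the cause was not tested. The values of low genes depend on the pseudocount: SLC22A9 ranged from 2.12 to 4.64 and SLCO1B1 from 3.46 to 5.72. Deviations from the group means had correlations of -0.020, -0.061 and 0.025 between same-numbered libraries, and of -0.046 to 0.066 between other pairs. With 3 libraries per group, these values cannot decide whether the numbers pair the libraries. With the replicate block, 12916 genes passed and the counts for the 9 transporters were 6 higher and 1 lower. Depth limits SLCO1B1, SLC22A7 and SLC22A9 in wild type, where 7, 29 and 3 reads were estimated.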

Other observations

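The genes whose centred log2 values over the 6 libraries lay nearest to those of SLC22A7, by Euclidean distance, were SLC5A9 (0.20), INPP5D (0.31) and EMB (0.32). SLC5A9, a sugar transporter gene on chromosome 1, had 58.7 ± 0.94 CPM in the knockout and 0.929 ± 0.23 CPM in wild type (SD, n = 3 each). INPP5D, a lipid phosphatase gene, had 45.9 ± 1.77 CPM in the knockout and 0.658 ± 0.13 CPM in wild type. Nearest to SLC47A2 were TMPRSS15 (0.21), KCNQ3 (0.22) and LINC00840 (0.24). TMPRSS15, the enteropeptidase gene on chromosome 21, had 7.06 ± 0.34 CPM in the knockout and 212 ± 15.6 CPM in wild type, and the potassium channel gene KCNQ3 had 1.29 ± 0.13 CPM in the knockout and 53.3 ± 1.33 CPM in wild type. SLC22A7 and INPP5D passed the filter on low values only through the knockout libraries, and LINC00840 only through wild type, so these had to differ. Each distance is a description over 6 libraries in 2 groups.

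GYS2, the liver glycogen synthase gene 473.6 kb from the SLCO1B1 start, had 6.75 ± 0.53 CPM in the knockout and 0.118 ± 0.040 CPM in wild type, where it rested on 2 estimated reads in each library, so it passed the filter only through the knockout. PLG, the plasminogen gene 353.97 kb downstream of the SLC22A3 start, had a log2 fold change of 3.51. The median log2 fold change of tested genes was 0.33 on chromosome 12, 0.044 on chromosome 11, -0.047 on chromosome 6 and 0.069 on chromosome 17, each without SLCO1B1, SLCO2B1, SLC22A3 or SLC47A2 in turn.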
